A study of Mus musculus with 6 samples.

Results

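The 37 activity-induced immediate early genes were chosen as a list of gene symbols, among them Fos, Arc, Npas4 and Egr1, and were matched by gene identifier in the dorsal hippocampus of mice injected with an antisense oligonucleotide (ASO) against the long non-coding RNA Snhg11 or with a control ASO. They are 37 of the 55401 genes in the files, and all 37 were among the 19969 genes left by the filter on low counts. The list holds 5 genes called neuronal effectors here, Arc, Npas4, Bdnf, Homer1 and Nptx2. Npas4 encodes a transcription factor, and the products of the others act at synapses. The 32 other members are mostly also known to be induced by stress, growth factors or injury in many cell types.

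Immediate early genes are transcribed within minutes of a stimulus, without new protein synthesis, because the factors that switch them on, CREB and SRF among them, already sit at their promoters and are activated by calcium and kinase signalling. In the hippocampus they are used as a record of recent neuronal firing, and their transcripts and many of their proteins are short-lived. Glia, endothelial cells and invading blood cells induce many of the same transcription factors and phosphatases after injury, so a level measured in whole tissue carries no label of the cell it came from.

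RNA-seq was performed on 6 samples, 3 from mice given Control-ASO and 3 from mice given Snhg11-ASO, with 1 mouse per sample. All were wild-type (WT) littermates of the trisomic Ts65Dn line, 4 months old, and all underwent the same surgery, anaesthesia with ketamine and medetomidine, buprenorphine treatment and bilateral injection of 50 µg of ASO per hemisphere into the dorsal dentate gyrus (DG). The dorsal portion of the hippocampus was taken 3 days after injection, so cells outside the injected DG were sampled with it. Control-ASO is a scrambled sequence that matches no gene, Snhg11-ASO carries the same chemistry, and uninjected mice were not analysed here, so every level below was measured in tissue that had been injected.

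The targeted RNA was lower in every mouse given the ASO against it. Snhg11 stood at 551, 436 and 209 CPM in the 3 controls and at 139, 65.4 and 69.4 CPM after Snhg11-ASO (log2 fold change -2.13, standard error 0.43, Benjamini-Hochberg adjusted p = 0.395 in edgeR, exact two-sided permutation p = 0.1, the smallest that 3 against 3 allows). In DESeq2 the adjusted p was 6.2e-05. CPM are counts scaled to a common library total of the tested genes, corrected with the TMM factor of each library. Values of each group are given here and below in the order of replicates 1, 2 and 3. Libraries held 28951250 to 43997537 counts on genes, and defining hippocampal genes were present in every sample, with Prox1, a granule cell factor of the DG, between 82.1 and 167 CPM and Slc17a7, the vesicular glutamate transporter of excitatory neurons, between 614 and 748 CPM.

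Snhg11-ASO replicate 1 stood apart from the other 5 samples before any comparison of groups. It held the highest level of the 6 samples in 30 of the 37 immediate early genes, was over 1.5 times the highest other sample in 21 of them and over 2 times in 17. How many of all genes tested met these limits was not counted, so these counts have no background to be read against. The same sample had the highest sum over 5 markers of infiltrating myeloid cells (63.2 CPM against 19.2 to 34.0 in the others), led by the neutrophil genes S100a8 (22.3 CPM against at most 1.05) and S100a9 (16.0 against at most 1.09). Of the other myeloid markers, the monocyte gene Ly6c2 was higher in all 3 Snhg11-ASO samples (1.60 to 2.88 CPM) than in the controls (0.306 to 0.564), Ccr2 and Lyz2 overlapped, and none of the 5 was at 0. Snhg11-ASO replicate 1 also had the lowest sum over 5 microglial markers (116 CPM against 183 to 342), with Cx3cr1, the microglial fractalkine receptor, at 7.84 CPM against 32.2 to 55.8, and the lowest share of mitochondrial counts (23.7% against 25.4% to 28.2%). Microglial P2ry12, Tmem119 and Csf1r were also lowest there, but C1qa was not (44.2 CPM, above 31.7 CPM in Control-ASO replicate 1). The summed markers of excitatory neurons (3066 CPM, between 2846 and 3411 in the others), of interneurons (300.2 against 278 to 362) and of endothelial cells (145 against 131 to 158) lay within the range of the other samples. So did those of astrocytes, oligodendrocytes, mural cells, meningeal fibroblasts and choroid plexus. The choroid plexus sum differed widely among samples, at 1899, 36.5 and 1232 CPM in Control-ASO and at 1301, 125 and 68.2 CPM in Snhg11-ASO. Single markers in Snhg11-ASO replicate 1 went opposite ways within a sum. Endothelial Pecam1 was its highest (25.6 CPM against at most 13.8), while Tek (4.41 against at least 12.1) and Slco1a4 (17.2 against at least 40.1) were lowest. Of the excitatory neuron markers, Prox1 (167 against at most 122) and Neurod2 (121 against at most 107) were highest there. Slc17a7 (614 against at least 622) and Snap25 (884 against at least 923) were lowest. Whether these differences play a part in the levels of immediate early genes was not tested. Fold changes of members that leaving out this sample moved by over 1.5 times are given below with and without it. In bulk tissue, fewer cells of a type and less RNA per cell cannot be told apart.

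Whether reduction of Snhg11 goes with a change in activity-induced transcription was read first over the whole set. Of the 37 genes, 36 had a positive fitted log2 fold change (Snhg11-ASO minus Control-ASO) and 1, Nr4a2, a negative one, and the median was 0.75, beside 0.01 over all genes tested. None passed a Benjamini-Hochberg adjusted p of 0.05 in edgeR's quasi-likelihood test (0% of all genes tested did). The smallest adjusted p of a member was 0.428. At an unadjusted p under 0.05, 13 members were higher in Snhg11-ASO, where 3.68% of all genes tested were, and 1 was lower, where 4.43% were. In 14 members all Snhg11-ASO samples lay above all Control-ASO samples (7.73% of all genes tested), and in 1 all lay below (7.70%). DESeq2 called 2 members, Fos and Klf10, both higher (0.496% of all genes tested were called higher and 0.796% lower), and gave no p for Fosb, Maff and Dusp1.

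Read sample by sample, the median distance of the members from the Control-ASO mean on the log2 CPM scale was 0.13, -0.07 and 0.02 in the controls. In the Snhg11-ASO samples it was 1.22, 0.24 and 0.35. All 3 Snhg11-ASO samples thus had a higher median than any Control-ASO sample, but replicate 1 was far above the other Snhg11-ASO samples. Replicate 1 also kept the highest Snhg11 level of the 3 (139 CPM, against 65.4 and 69.4 CPM in replicates 2 and 3). A relation between Snhg11 level and these medians was not tested. Levels above the Control-ASO mean were found for 34, 27 and 30 of the 37 genes in the Snhg11-ASO samples and for 24, 14 and 21 in the Control-ASO samples. The share of all genes tested above that mean was not counted.

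**Figure D1:**
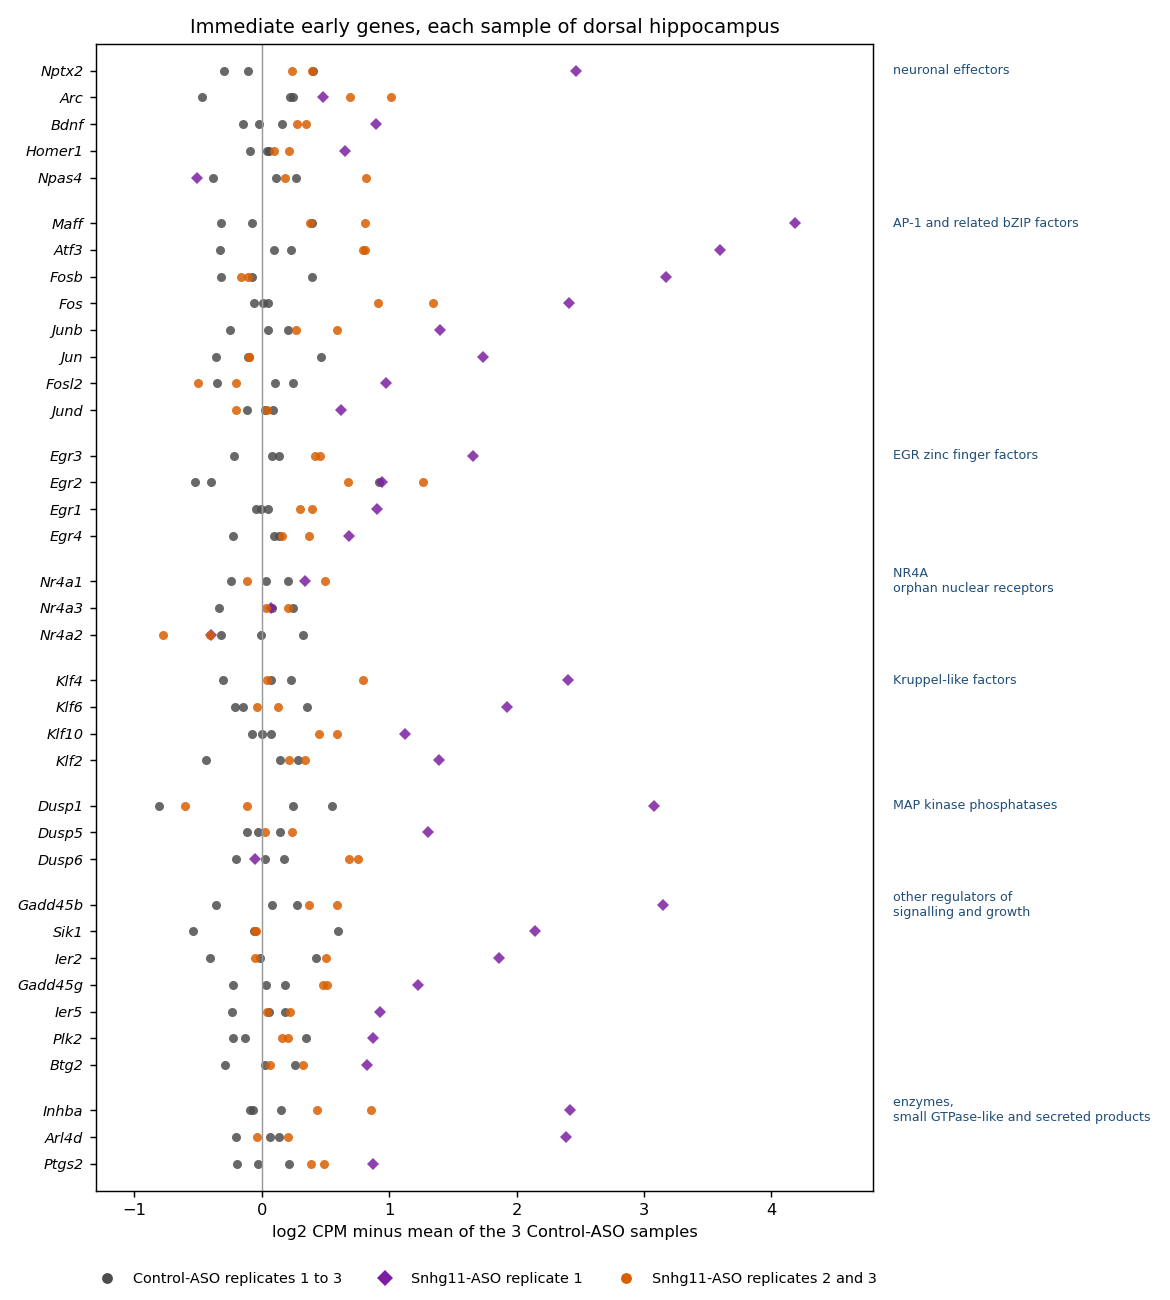
Level of each immediate early gene in each sample, as log2 CPM minus the mean of the 3 Control-ASO samples (x axis), with genes on the y axis grouped by role. Grey circles are Control-ASO samples, purple diamonds Snhg11-ASO replicate 1 and orange circles Snhg11-ASO replicates 2 and 3. The diamonds lie farthest to the right for 30 of 37 genes, and past 3 log2 units for Maff, Atf3, Fosb, Gadd45b and Dusp1, while an orange point lies farthest right for Arc, Npas4, Egr2, Nr4a1 and Dusp6 and a grey one for Nr4a2 and Nr4a3.

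The set can also be viewed at its promoters. RefSeq promoter windows of GRCm38.p6, from 250 bases before to 50 bases after the annotated start, were at hand for 30 of the 37 genes in 43 windows, and were searched on both strands. There was no window for Arc, Egr1, Egr3, Ier2, Klf10, Nptx2 and Sik1, and sites outside the windows were not searched. The cAMP response element (CRE), TGACGTCA, is bound by CREB and by dimers that contain ATF3, and its core, TGACG or CGTCA, which every full CRE also contains, is a shorter form. A core was found in 21 of the 30 genes (70%), and in 23% of the 27025 genes with a window. The full CRE was found in 5 of them, Arl4d, Btg2, Dusp1, Maff and Plk2 (16.7%, beside 2.03% of all genes). The CArG box of the serum response element was found in Dusp5 and Egr2 (6.67% beside 1.81%), and the AP-1 site, TGAGTCA or TGACTCA, in none of the 30 (5.95% of all genes). These matches describe letters in a window and were not tested against the measured levels. The 120 bases before the start are printed 5′ to 3′ in lower case for 6 genes, chosen because they span the observed patterns. Fos was higher in all 3 Snhg11-ASO samples, Maff, Arl4d and Gadd45b were far above the other 5 samples in Snhg11-ASO replicate 1, Plk2 was the most abundant member per length, and Nr4a2 was the member that was lower. Capitals mark a full CRE or a core (TGACGTCA, TGACG or CGTCA), the motif TATAAA and, in Maff, the EGR site GCGTGGGCG.
Fos (chr12:85473770-85473889, plus strand): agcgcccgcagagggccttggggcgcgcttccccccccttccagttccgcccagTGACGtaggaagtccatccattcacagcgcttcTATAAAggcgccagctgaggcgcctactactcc
Maff (chr15:79347400-79347519, plus strand): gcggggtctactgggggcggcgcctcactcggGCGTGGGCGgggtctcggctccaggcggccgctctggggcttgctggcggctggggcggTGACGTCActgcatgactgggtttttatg
Arl4d (chr11:101665421-101665540, plus strand): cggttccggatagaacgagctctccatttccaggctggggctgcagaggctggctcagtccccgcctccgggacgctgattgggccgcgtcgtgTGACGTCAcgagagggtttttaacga
Gadd45b (chr10:80929971-80930090, plus strand): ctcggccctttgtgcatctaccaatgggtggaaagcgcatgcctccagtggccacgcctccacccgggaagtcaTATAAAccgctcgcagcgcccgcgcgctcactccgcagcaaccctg
Plk2 (chr13:110394924-110395043, plus strand): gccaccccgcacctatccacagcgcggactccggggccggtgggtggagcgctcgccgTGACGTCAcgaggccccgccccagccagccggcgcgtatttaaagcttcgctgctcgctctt
Nr4a2 (chr2:57124004-57124123, minus strand): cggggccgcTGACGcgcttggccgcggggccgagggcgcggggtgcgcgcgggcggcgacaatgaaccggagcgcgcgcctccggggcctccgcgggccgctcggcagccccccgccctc
Within the printed bases and relative to the start, the core of Fos begins at -66 and its TATAAA at -33. The CRE of Maff begins at -29, of Arl4d at -26 and of Plk2 at -62. The TATAAA of Gadd45b begins at -46 and the core of Nr4a2 at -111. Outside the printed bases, the windows held further cores in Fos (-129), Arl4d (-228), Plk2 (22) and Nr4a2 (-200, -144 and -123). Nr4a2 also had TATAAA on the other strand (-164). The Maff sequence belongs to the second of its 3 annotated starts, and counts per gene do not tell the starts apart.

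Among the neuronal effectors, 3 of 5 were higher in every Snhg11-ASO sample than in any Control-ASO sample (7.73% of all genes tested), and the median log2 fold change of the 5 was 0.53. Arc, whose protein forms capsid-like particles and drives internalization of AMPA receptors at active synapses, lies on the minus strand of chromosome 15 (74669083 to 74672570 in GRCm38) and shares no exonic base with another annotated gene. Its level was 83.0, 51.4 and 84.4 CPM in Control-ASO and 99.2, 115 and 144 CPM in Snhg11-ASO. The groups did not overlap, and unlike most members Arc was lowest, not highest, in replicate 1 among the Snhg11-ASO samples. Its mean was 72.9 ± 18.6 CPM (SD, n = 3) in Control-ASO and 119 ± 22.5 CPM (SD, n = 3) in Snhg11-ASO, a ratio of 1.64. The log2 fold change of Arc was 0.71 (standard error 0.22, edgeR quasi-likelihood unadjusted p = 0.0147, Benjamini-Hochberg adjusted p = 0.532). Leaving out any 1 sample kept the log2 fold change between 0.51 and 0.83.

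Bdnf encodes brain-derived neurotrophic factor, a secreted ligand of the TrkB receptor that strengthens synapses. Its levels were 32.4, 40.2 and 35.4 CPM in Control-ASO and 66.9, 43.6 and 45.7 CPM in Snhg11-ASO. All Snhg11-ASO samples lay above the controls, replicates 2 and 3 by a small margin and replicate 1 by a wide one. Its fitted difference on the log2 scale was 0.53 (standard error 0.18, edgeR quasi-likelihood unadjusted p = 0.0236, Benjamini-Hochberg adjusted p = 0.556) and 0.31 (standard error 0.11) without Snhg11-ASO replicate 1. The activity-induced and constitutive transcripts of Bdnf start at different exons, and those of Homer1 end at different sites, so neither can be separated in counts per gene.

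Homer1, a scaffold of metabotropic glutamate receptors whose short activity-induced form uncouples the long ones, was counted at 172, 155 and 170 CPM in Control-ASO and at 260, 192 and 177 CPM in Snhg11-ASO. The groups did not overlap, although Snhg11-ASO replicate 3 was close to the highest control. The fitted log2 difference was 0.34 (standard error 0.15, edgeR quasi-likelihood unadjusted p = 0.0611, Benjamini-Hochberg adjusted p = 0.631) and 0.16 (standard error 0.08) without Snhg11-ASO replicate 1.

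Nptx2, a secreted pentraxin that clusters AMPA receptors at synapses on interneurons, had levels of 18.5, 26.5 and 16.3 CPM in Control-ASO and of 111, 23.6 and 26.4 CPM in Snhg11-ASO. Its large mean difference came from replicate 1, since replicates 2 and 3 lay inside the control range. With all samples the log2 fold change reached 1.39 (standard error 0.61, edgeR quasi-likelihood unadjusted p = 0.0557, Benjamini-Hochberg adjusted p = 0.618) and without that one 0.29 (standard error 0.20).

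Npas4, a transcription factor induced by calcium influx in neurons and by few other stimuli, is the member most closely tied to neuronal firing. It was counted at 7.72, 4.87 and 6.89 CPM in Control-ASO and at 4.46, 7.25 and 11.3 CPM in Snhg11-ASO. The groups overlapped, and the lowest and the highest of the 6 samples both belonged to Snhg11-ASO, the lowest being replicate 1. The log2 fold change of 0.24 (standard error 0.35, edgeR quasi-likelihood unadjusted p = 0.516, Benjamini-Hochberg adjusted p = 0.876) became -0.15 without Snhg11-ASO replicate 3 and 0.52 without replicate 1. Npas4 and Arc were thus the 2 effectors in which replicate 1 was the lowest of the Snhg11-ASO samples, while in Bdnf, Homer1 and Nptx2 it was the highest.

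**Figure D2:**
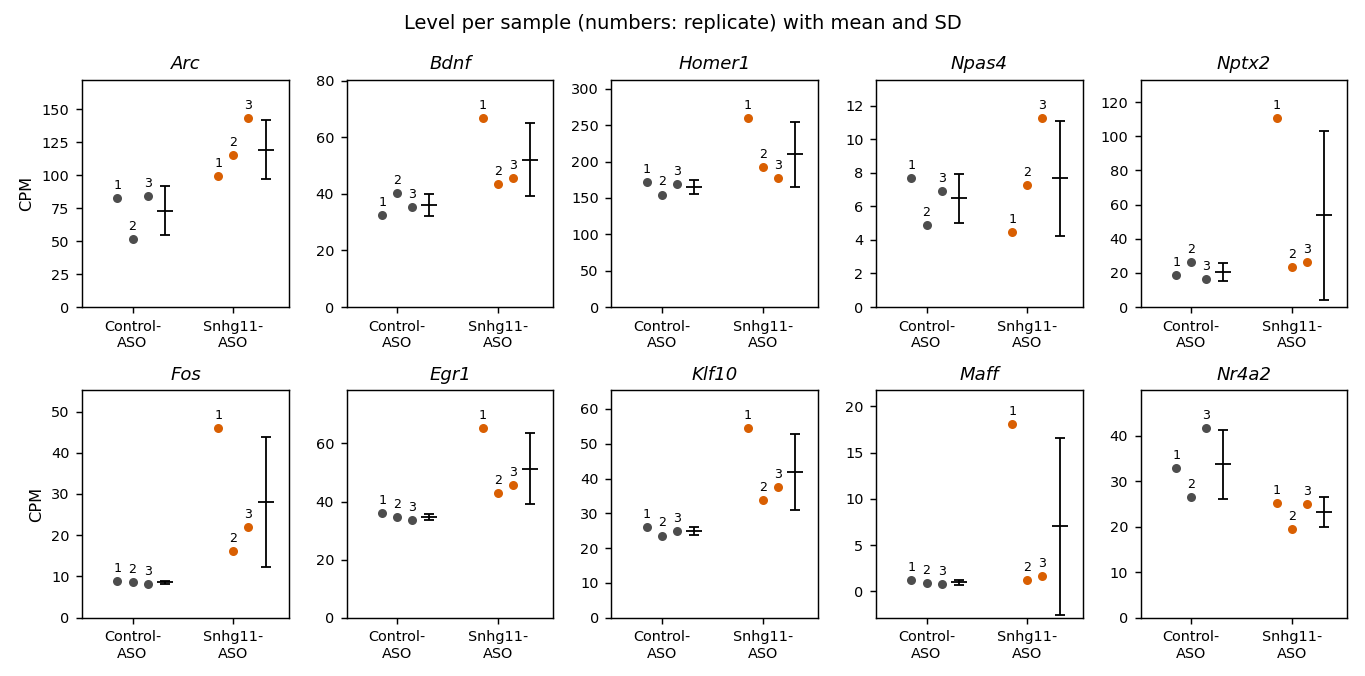
CPM (y axis) of the 5 neuronal effectors (top) and of 5 other members (bottom) in each Control-ASO (grey) and Snhg11-ASO (orange) sample, with the replicate number above each point and the group mean with its SD (n = 3) at the side. Arc, Bdnf, Homer1, Fos, Egr1 and Klf10 show 3 Snhg11-ASO samples above all controls, Nr4a2 3 below, and in Nptx2 and Maff replicate 1 (111 and 18.1 CPM) makes most of the difference between the means.

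The 2 largest fold changes, those of Maff and Atf3, were in the group of the AP-1 family, basic leucine zipper (bZIP) factors that bind DNA as dimers of a Fos and a Jun protein, and their relatives. All 8 had a positive fitted log2 fold change with a median of 1.26, which was 0.18 without Snhg11-ASO replicate 1, when 4 of the 8 were positive and 4 negative. Fos (chromosome 12, plus strand, 85473890 to 85477273) had the smallest unadjusted p of the whole set and was at 8.91, 8.68 and 8.22 CPM in Control-ASO and at 45.9, 16.2 and 21.9 CPM in Snhg11-ASO. The control samples differed by less than 1 CPM, and every Snhg11-ASO sample lay well above them. The mean of 8.60 ± 0.35 CPM (SD, n = 3) compared with 28.0 ± 15.8 CPM (SD, n = 3), a ratio of 3.26. The log2 fold change of Fos was 1.70 (standard error 0.37, edgeR quasi-likelihood unadjusted p = 0.00259, Benjamini-Hochberg adjusted p = 0.428). In DESeq2 the adjusted p was 0.00112. Without Snhg11-ASO replicate 1 the log2 fold change was 1.15 (standard error 0.15, edgeR quasi-likelihood unadjusted p = 1.7e-04, Benjamini-Hochberg adjusted p = 0.173), so a smaller difference was set against a smaller spread.

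Its relatives behaved differently from each other. Junb, a Jun protein with weak transactivation, was counted at 31.2, 22.8 and 28.0 CPM in Control-ASO and at 71.7, 32.6 and 40.8 CPM in Snhg11-ASO, with no overlap. Its log2 fold change was 0.82 (standard error 0.29, edgeR quasi-likelihood unadjusted p = 0.0264, Benjamini-Hochberg adjusted p = 0.562), and 0.43 without replicate 1. Jun, the founding partner of Fos and a target of stress-activated JNK signalling, was at 66.2, 44.4 and 37.2 CPM and at 159, 44.7 and 44.6 CPM, so that only replicate 1 left the control range (log2 fold change 0.75, and -0.14 without it). Fosb, which persists in neurons as its truncated form after repeated stimulation, was at 3.64, 2.20 and 2.61 CPM and at 25.2, 2.56 and 2.45 CPM, again with replicates 2 and 3 within the control range (1.84, and -0.16 without replicate 1). Fosl2 and Jund, the more constitutive relatives, had log2 fold changes of 0.22 and 0.19, which were -0.36 and -0.08 without that sample.

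Atf3, a stress-induced bZIP factor that is a common mark of injured neurons, rested almost wholly on 1 sample in size but not in direction. Its levels were 1.73, 1.58 and 1.16 CPM in Control-ASO and 18.3, 2.58 and 2.61 CPM in Snhg11-ASO. The groups did not overlap, and replicates 2 and 3 differed by less than 0.1 CPM. The log2 fold change of 2.39 (standard error 0.82, edgeR quasi-likelihood unadjusted p = 0.0222, Benjamini-Hochberg adjusted p = 0.551) was 0.81 (standard error 0.23) without replicate 1. Maff, a small Maf protein that dimerizes with CNC factors in the oxidative stress response, had the largest fold change of the set, at 1.26, 0.892 and 0.742 CPM and at 18.1, 1.24 and 1.69 CPM. For Maff, replicate 2 lay within the control range, and the log2 fold change of 2.86 (standard error 1.06, edgeR quasi-likelihood unadjusted p = 0.0305, Benjamini-Hochberg adjusted p = 0.574) was 0.62 without replicate 1.

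The EGR zinc finger factors link growth factor and synaptic signals to later plasticity genes. All 4 had a positive log2 fold change with a median of 0.71, which was 0.39 without Snhg11-ASO replicate 1. The corresponding medians of the AP-1 group were 1.26 and 0.18. Egr1, the member most used as a marker of long-term potentiation, was at 35.9, 34.5 and 33.7 CPM in Control-ASO and at 65.2, 42.9 and 45.7 CPM in Snhg11-ASO. The controls were tightly spaced and every Snhg11-ASO sample was above them (log2 fold change 0.56, standard error 0.17, edgeR quasi-likelihood unadjusted p = 0.0123, Benjamini-Hochberg adjusted p = 0.527), and without replicate 1 the log2 fold change was 0.35 (standard error 0.08). Egr3, a close relative that is also needed for muscle spindles, was at 37.7, 36.4 and 29.5 CPM and at 109, 46.0 and 47.1 CPM, with no overlap. Its log2 fold change of 0.96 (standard error 0.34, edgeR quasi-likelihood unadjusted p = 0.0265, Benjamini-Hochberg adjusted p = 0.562) was 0.43 without replicate 1. Egr4 was low in all samples, 2.79 to 3.60 CPM in Control-ASO and 3.66 to 5.30 CPM in Snhg11-ASO, and did not overlap either. The gap was under 0.1 CPM (log2 fold change 0.42, edgeR quasi-likelihood unadjusted p = 0.104, Benjamini-Hochberg adjusted p = 0.680), and the log2 fold change was 0.26 without replicate 1. Egr2, best known for its part in myelination, overlapped between the groups, with 0.862 to 2.45 CPM in Control-ASO and 2.06 to 3.11 CPM in Snhg11-ASO.

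The NR4A orphan nuclear receptors, which act without a known ligand and whose induction accompanies memory consolidation, were the one family without a shared direction when all samples were used. Nr4a2, also called Nurr1, lies on the minus strand of chromosome 2 (57106830 to 57124003). Its levels were 33.0, 26.6 and 41.6 CPM in Control-ASO and 25.2, 19.4 and 25.1 CPM in Snhg11-ASO. All 3 Snhg11-ASO samples were below all controls, with replicate 1 close to replicate 3. The means were 33.7 ± 7.57 and 23.2 ± 3.32 CPM (SD, n = 3 each), a ratio of 0.689. Its log2 fold change was -0.54 (standard error 0.19, edgeR quasi-likelihood unadjusted p = 0.0265, Benjamini-Hochberg adjusted p = 0.562). It stayed between -0.68 and -0.36 when any 1 sample was left out. Nr4a1, the receptor induced by growth factors in many tissues, was at 21.5 to 29.2 CPM and 23.4 to 35.8 CPM with overlap (0.25, standard error 0.19). Nr4a3 was the flattest member, at 48.0, 42.8 and 32.1 CPM and at 42.5, 46.6 and 41.4 CPM, with the Snhg11-ASO samples inside the control range (0.09, standard error 0.16).

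Of the Kruppel-like factors, zinc finger proteins that control growth and differentiation, Klf10 was the one higher in every Snhg11-ASO sample. Klf10, a TGF-beta-induced repressor, was counted at 26.2, 23.6 and 24.9 CPM in Control-ASO and at 54.4, 33.9 and 37.6 CPM in Snhg11-ASO. Like Fos and Egr1 it combined closely spaced controls with a clear gap. The mean was 24.9 ± 1.27 CPM (SD, n = 3) against 42.0 ± 10.9 CPM (SD, n = 3). The log2 fold change of 0.75 (standard error 0.19) had an edgeR quasi-likelihood unadjusted p of 0.00484 and a Benjamini-Hochberg adjusted p of 0.465. In DESeq2 the adjusted p was 0.0317. Klf2 and Klf4, known from endothelium, and Klf6, known from tissue injury, had log2 fold changes of 0.73, 1.43 and 0.94 that were 0.25, 0.46 and 0.03 without replicate 1. Klf6 showed this most plainly, at 34.6, 33.1 and 49.1 CPM in Control-ASO and at 146, 37.4 and 41.8 CPM in Snhg11-ASO.

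The MAP kinase phosphatases, which switch off the kinases that induced them, split in opposite ways over replicate 1. Dusp1, a nuclear phosphatase of p38 and JNK induced by stress and glucocorticoids, was at 9.65, 4.64 and 12 CPM in Control-ASO and at 69.0, 5.34 and 7.51 CPM in Snhg11-ASO. Outside replicate 1 its levels lay within the control range, and the log2 fold change of 1.64 became -0.44 without that sample. Dusp6, a cytoplasmic phosphatase specific for ERK, was at 42.8, 55.7 and 50.1 CPM and at 47.5, 83.3 and 79.2 CPM. Here replicate 1 was the one inside the control range and replicates 2 and 3 were above it. For Dusp6 the log2 fold change was 0.50 (standard error 0.22) with all samples and 0.71 (standard error 0.12, edgeR quasi-likelihood unadjusted p = 6.5e-04, Benjamini-Hochberg adjusted p = 0.208) without replicate 1. Dusp5, a nuclear ERK phosphatase, was at 10.2 to 12.1 CPM and at 27.3, 13.0 and 11.2 CPM (0.64, and 0.13 without replicate 1).

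Of the 7 other regulators of signalling and growth, all had a positive log2 fold change and 2, both of the Gadd45 family of small stress sensors that activate p38 signalling and take part in DNA demethylation, were without overlap. Gadd45b was at 7.58, 4.87 and 6.62 CPM in Control-ASO and at 55.9, 8.11 and 9.46 CPM in Snhg11-ASO, with replicates 2 and 3 just above the controls. The log2 fold change of 1.95 (standard error 0.75, edgeR quasi-likelihood unadjusted p = 0.0365, Benjamini-Hochberg adjusted p = 0.586) was 0.47 (standard error 0.20) without replicate 1. Gadd45g was more even, at 6.19, 7.40 and 8.22 CPM and at 16.9, 10.1 and 10.4 CPM (0.78, standard error 0.24, edgeR quasi-likelihood unadjusted p = 0.0151, Benjamini-Hochberg adjusted p = 0.532), and 0.49 without replicate 1. In both genes replicate 1 was the highest sample.

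The other 5 of this group overlapped between the groups. Plk2, a kinase that weakens synapses after prolonged activity, was the most abundant member per length, at 51.9 ± 11.6 CPM per kb of exon (SD, n = 3) in Control-ASO. It had 197, 293 and 210 CPM in Control-ASO and 420, 264 and 257 CPM in Snhg11-ASO (log2 fold change 0.43, and 0.16 without replicate 1). Sik1, a kinase that shuts off CREB coactivators, was at 10.3, 4.64 and 6.47 CPM and at 30.1, 6.53 and 6.50 CPM (1.01, and -0.12 without replicate 1). Ier2, Ier5 and Btg2, short-lived regulators of transcription and of the cell cycle, had log2 fold changes of 0.98, 0.44 and 0.42, and of 0.22, 0.12 and 0.18 without that sample.

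In the last group, Ptgs2 and Inhba were higher in every Snhg11-ASO sample. Ptgs2, or cyclooxygenase COX-2, the inducible enzyme of prostaglandin synthesis that excitatory neurons express on firing, was at 24.3, 32.2 and 27.2 CPM in Control-ASO and at 50.7, 39.0 and 36.3 CPM in Snhg11-ASO. The groups did not overlap (log2 fold change 0.59, standard error 0.17, edgeR quasi-likelihood unadjusted p = 0.0098, Benjamini-Hochberg adjusted p = 0.498). Replicate 1 exceeded the others by less than in most members, and the log2 fold change without it was 0.43. Inhba, the subunit of activin A, a secreted ligand that protects neurons after excitotoxic injury, was at 9.55, 8.20 and 8.07 CPM and at 46.1, 15.6 and 11.6 CPM. Replicate 1 was again the highest (log2 fold change 1.50, standard error 0.50, edgeR quasi-likelihood unadjusted p = 0.0200, Benjamini-Hochberg adjusted p = 0.550), and the other two gave 0.66 (standard error 0.16). Arl4d, a small GTPase-like protein of membrane traffic, was at 4.82 to 6.08 CPM in Control-ASO and at 29.2, 5.38 and 6.41 CPM in Snhg11-ASO, with a log2 fold change of 1.29 that was 0.09 without replicate 1.

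Per kb of exon, the mean level in Control-ASO ran from 0.372 ± 0.102 CPM per kb (SD, n = 3) for Maff to 51.9 for Plk2. Arc followed Plk2 at 23.9 ± 6.10 CPM per kb, then Jund at 18.9 ± 1.38, Dusp6 at 15.8 ± 2.06, Jun at 15.5 ± 4.73 and Homer1 at 13.8 ± 0.774. From Arc to Homer1, the mean ± SD of each member overlapped that of the next in this order. At the low end, Egr2 (0.418 ± 0.262), Klf4 (0.450 ± 0.086), Fosb (0.451 ± 0.119) and Atf3 (0.691 ± 0.138) lay close to Maff. Several of the largest fold changes were thus in genes of low level, with 37, 30 and 25 counts in the control libraries in the case of Maff.

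Setting the effectors beside the rest, the 5 effectors had a median log2 fold change of 0.53 and the other 32 members one of 0.76, and without Snhg11-ASO replicate 1 the medians were 0.31 and 0.24. In that replicate alone the median distance from the Control-ASO mean was 0.66 for the effectors and 1.35 for the others, in replicate 2 it was 0.24 and 0.25, and in replicate 3 it was 0.40 and 0.27. The larger distance of the non-effector genes was therefore seen in replicate 1 and not in the other Snhg11-ASO samples, which is a description of 3 mice and was not tested.

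Without Snhg11-ASO replicate 1, the median over the 37 genes was 0.26, with 30 positive and 7 negative. At an unadjusted p under 0.05, 12 members were higher (4.41% of all genes tested in that fit) and 1 lower (5.54%), with none past an adjusted p of 0.05 in edgeR's quasi-likelihood test. The 12 were Arc, Bdnf, Fos, Junb, Atf3, Egr1, Egr3, Klf10, Dusp6, Gadd45g, Ptgs2 and Inhba, and the lower one was Nr4a2. Replicates 2 and 3 both lay above all controls in 15 members, where 14.7% of all genes tested did so, namely these 12 with Homer1, Egr4 and Gadd45b. Both lay within the control range in 8 (Nptx2, Fosb, Jun, Nr4a3, Klf6, Dusp1, Plk2 and Sik1), both below it in 1 (Nr4a2), and 13 were mixed. By this count, members such as Fos, Arc, Egr1 and Klf10 were higher in all Snhg11-ASO samples. Nptx2, Fosb, Jun, Klf6, Dusp1, Plk2 and Sik1 left the control range in replicate 1 alone. These patterns were not cleanly separate. Atf3, Gadd45b and Inhba were higher in all Snhg11-ASO samples, yet replicate 1 was at 7.0, 5.9 and 3.0 times the highest other sample. For Plk2 that ratio was only 1.4.

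**Figure D3:**
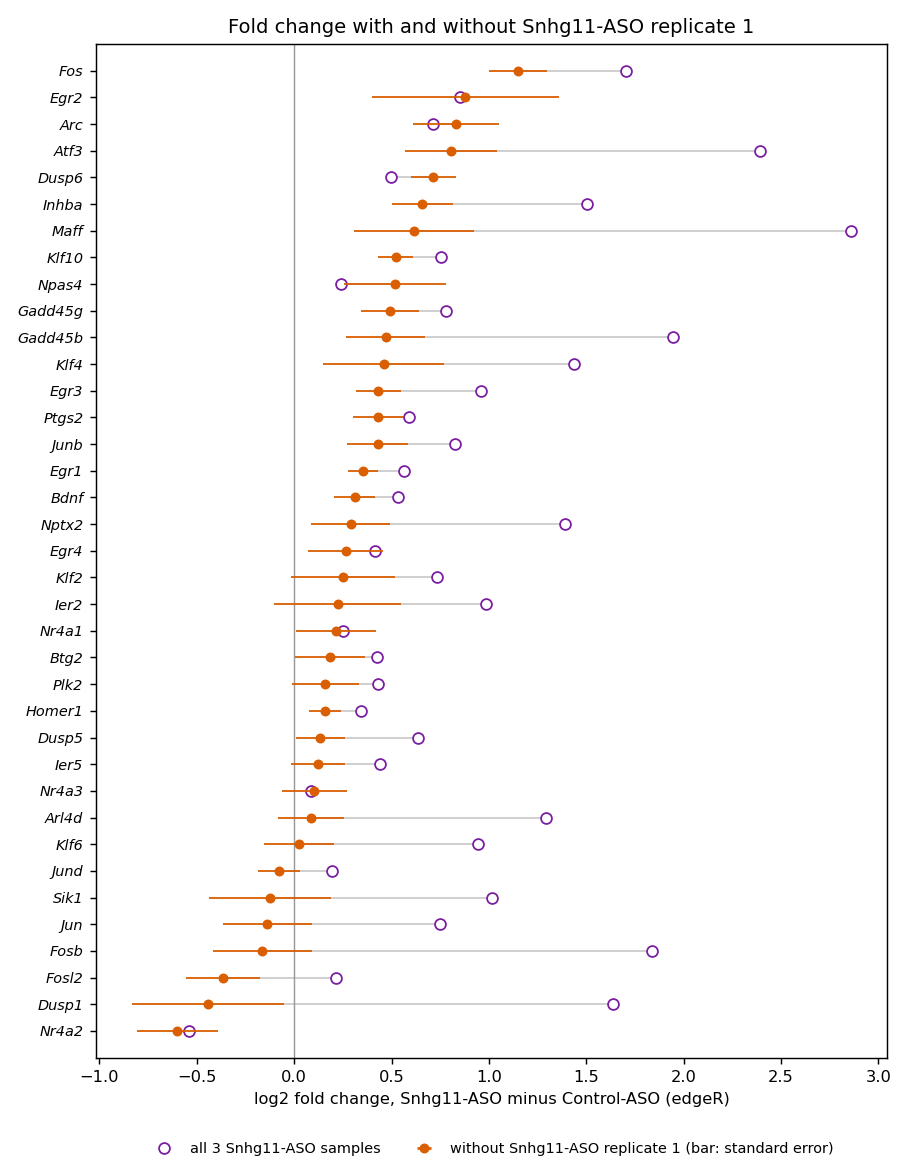
Fitted log2 fold change (x axis, Snhg11-ASO minus Control-ASO, edgeR) of each of the 37 genes (y axis) with all samples (open purple circles) and without Snhg11-ASO replicate 1 (orange points, bars are standard errors). Fos had the largest value (1.15) without that sample, Maff and Atf3 stood at 0.62 and 0.81 in place of 2.86 and 2.39, and 7 genes lay below 0.

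The study used DESeq2 and removed 1 Snhg11-ASO sample that it does not name, so each was left out in turn. In DESeq2, 6 members passed an adjusted p of 0.05 without replicate 1 (0.559% of all genes tested were called higher): Arc, Fos, Egr1, Klf10, Dusp6 and Inhba. Without replicate 2 the number was 8 (0.692%): Nptx2, Fos, Junb, Atf3, Maff, Klf10, Gadd45b and Inhba. Without replicate 3 it was 4 (0.614%): Fos, Atf3, Maff and Inhba. Fos and Inhba were in all of these calls, Arc passed only when replicate 1 was left out, and all calls were in the direction of a higher level in Snhg11-ASO. Without replicate 1, Inhba passed narrowly, at an adjusted p of 0.0499 in DESeq2. Without replicate 2 or 3, replicate 1 was 1 of the 2 Snhg11-ASO samples left. Maff, called in those fits, had no p in DESeq2 with all samples.

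A list of 54 other activity-induced genes and one of 38 upstream regulators were read in the same fit. Both lists were chosen with earlier results of these data known. Their counts therefore describe these samples and are no independent check of whether the difference extends to the pathway. Of the 54, 48 had a positive log2 fold change with a median of 0.60, and 15 were higher and 1 lower at an unadjusted p under 0.05, beside the 3.68% and 4.43% of all genes tested. Without Snhg11-ASO replicate 1 the median was 0.15, with 37 positive and 17 negative. Fosl1, 1 of the 15 higher genes, had at most 7 counts per control library, too few to pass the filter there. The Snhg11-ASO libraries held 191, 13 and 13 counts, so the filter kept Fosl1 through the group where it was higher. Its log2 fold change of 3.38 and its place among the 15 therefore carry that selection. Cdkn1a, the cell cycle inhibitor p21, was at 4.66, 3.72 and 4.90 CPM in Control-ASO and at 62.6, 9.60 and 12.4 CPM in Snhg11-ASO, with no overlap (log2 fold change 2.67, standard error 0.73, Benjamini-Hochberg adjusted p = 0.494 in edgeR). Without Snhg11-ASO replicate 1 the log2 fold change of Cdkn1a was 1.31. In DESeq2 its adjusted p was 0.0769 with all samples, and 4.7e-06, 3.5e-05 and 0.000436 without Snhg11-ASO replicates 1, 2 and 3. Socs3, the feedback inhibitor of cytokine receptors that signal through STAT3, was at 5.0, 2.91 and 3.38 CPM and at 80.7, 6.53 and 6.55 CPM, with replicate 1 over 10 times the other Snhg11-ASO samples. Both are known to be induced by damage or cytokines.

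Smaller and more even differences were found for a pair of synaptic genes of the same list, named, like Cdkn1a and Socs3, after their values were seen. Nptx1, the pentraxin related to Nptx2, was at 289, 286 and 235 CPM in Control-ASO and at 426, 361 and 307 CPM in Snhg11-ASO (log2 fold change 0.43). Nrn1, a surface protein that supports dendritic growth, was at 126, 150.3 and 122 CPM and at 182, 173 and 158 CPM (0.36, and between 0.30 and 0.46 when any 1 sample was left out). Tac1, the precursor of substance P, was the one gene of the list that was lower at an unadjusted p under 0.05 (log2 fold change -1.21, and -1.82 without Snhg11-ASO replicate 3, where the adjusted p was 0.00174 in DESeq2).

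The upstream regulators, the kinases, channels, coactivators and factors through which activity reaches these promoters, did not share the direction. Of 38, 19 were positive and 19 negative with a median of 0.00 (-0.02 without Snhg11-ASO replicate 1), and none was higher and 3 lower at an unadjusted p under 0.05, beside 3.68% and 4.43% of all genes tested, so the count of lower genes was near that share. Creb1, the gene of CREB, and Srf had log2 fold changes of -0.06 and 0.01, and of 0.08 and 0.09 without that replicate. The 3 were Mef2c, an activity-regulated factor that limits synapse number (-0.73), Rps6ka3, the ERK-activated kinase RSK2 (-0.47), and Adcy1, the calcium-stimulated adenylyl cyclase (-0.47). All 3 had Benjamini-Hochberg adjusted p-values over 0.5 in edgeR with all samples. Mef2c stood at -0.37 without Control-ASO replicate 3, and Rps6ka3 at -0.71 without Snhg11-ASO replicate 1, where its adjusted p was 0.173 in edgeR and 6.0e-07 in DESeq2.

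**Figure D4:**
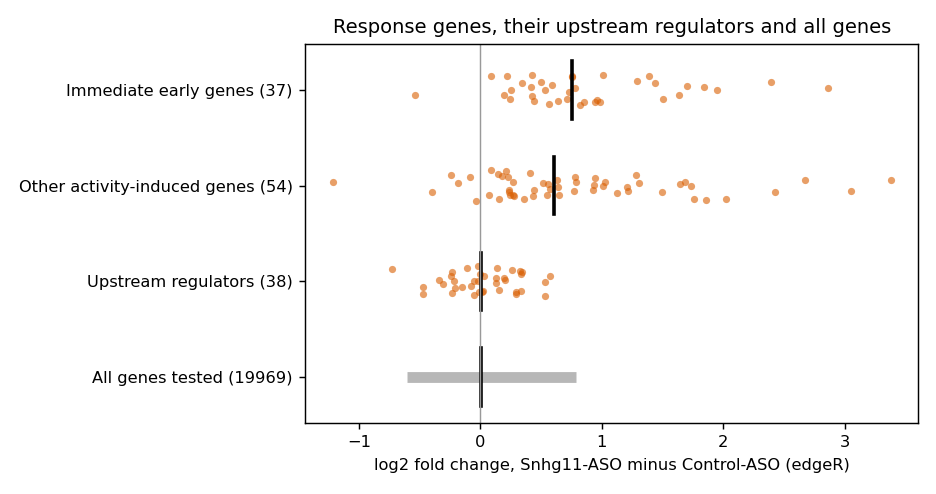
Fitted log2 fold change (x axis, Snhg11-ASO minus Control-ASO, edgeR) of the 37 immediate early genes, 54 other activity-induced genes and 38 upstream regulators (points, with the median as a black line), and the 5th to 95th percentile range (grey bar) and median of all 19969 genes tested. The medians were 0.75, 0.60, 0.00 and 0.01.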

How the data were processed

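RNA-seq libraries were prepared from ribo-depleted total RNA with a stranded kit. Per the methods, the authors aligned reads with STAR 2.5.2a to mm10, and they deposited raw gene counts, neither normalized nor pooled, 1 file per sample. The methods name Rsubread for counting, while the files are in STAR's format. The reverse-strand counts were used here. Summary lines that name no gene (43.5% to 51.4% of read pairs) were left out. Library totals were 28951250 to 43997537 counts.

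Symbols and positions were from GENCODE M21 (GRCm38), which matched 55141 of 55401 identifiers. No member shares exonic bases with a gene on the same strand. Genes were filtered with filterByExpr (minimum count 10), scaled with TMM and tested with edgeR 4.0.16 (quasi-likelihood test, Benjamini-Hochberg adjustment at 0.05, R 4.3.3). Each standard error is the fitted log2 fold change over the root of F, and log2 CPM had a prior count of 2. The scripts were tested on simulated data.

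All 37 members were named, by role. The members and gene lists were chosen with earlier results of these data known. Alternatives were DESeq2 1.42.0 with and without each Snhg11-ASO sample, DESeq2's size factors, counts of both strands, no filter, a replicate block, a correction for genomic span and leaving out each sample. The study removed 1 Snhg11-ASO sample that it does not name, and all were kept here. A pairing by replicate number was looked for. Samples with the same number deviated together (correlation 0.297, 0.179 and 0.103 of their distances to the group means, each above 0.1). No values for samples of unlike number are given beside them, so these correlations cannot establish a pairing. The pairing was used only in the block, as an alternative, and neither labels nor methods state it. Motifs were searched as exact letters in RefSeq promoter windows (GRCm38.p6).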

Additional observations from a re-analysis of the deposited data

How the results depend on the processing

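Precision was limited by 3 mice per group and by the distance of Snhg11-ASO replicate 1 from the other mice. No member passed an adjusted p of 0.05 in edgeR's quasi-likelihood test under any alternative, while DESeq2 called 2, and 6, 8 and 4 with Snhg11-ASO replicate 1, 2 or 3 left out. The number at an unadjusted p under 0.05, 14 with all samples, was 6 to 22 in edgeR when 1 sample was left out (6 without Control-ASO replicate 3, 8 and 9 without Control-ASO replicates 1 and 2, 22 without Snhg11-ASO replicate 2), and 25 and 24 in DESeq2 without Snhg11-ASO replicates 2 and 3. Leaving out 1 sample gave medians of 0.26 to 0.90 for all members, 0.31 to 0.64 for the effectors and 0.24 to 0.95 for the others, the lowest always without Snhg11-ASO replicate 1. DESeq2 without that sample gave 0.26, 0.31 and 0.23. The sign of the log2 fold change turned for 8 members when 1 sample was left out: Nr4a3 (-0.067 to 0.21, without Control-ASO replicate 3), Npas4 (-0.15 to 0.52, without Snhg11-ASO replicate 3, and -0.14 in DESeq2) and, without Snhg11-ASO replicate 1, Fosb (-0.16 to 2.30), Fosl2 (-0.36 to 0.48), Jun (-0.14 to 1.05), Jund (-0.076 to 0.36), Dusp1 (-0.44 to 2.12) and Sik1 (-0.12 to 1.36). DESeq2 without that replicate gave -0.17, -0.37, -0.14, -0.080, -0.45 and -0.13 for these 6. Snhg11 was past the threshold in DESeq2 (-2.12) and there without Snhg11-ASO replicates 1, 2 and 3 (-2.56, -1.94 and -1.96), and not in edgeR, where it was -2.56 to -1.83 when 1 sample was left out. The cause of these shifts was not tested. With the replicate block, which assumes a pairing of same-numbered samples that was not established, 0 members passed an adjusted p of 0.05, 16 passed an unadjusted one, the median was 0.65, and no other call changed. DESeq2's size factors, counts of both strands, no filter and the correction for genomic span turned no sign and made no call.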
